A study of Homo sapiens with 6 samples.

Results

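The expression of 8 transcription factors that specify gastrointestinal tissues, *GATA4*, *GATA6*, *SOX2*, *SOX9*, *CDX2*, *HNF4A*, *FOXA1* and *FOXA2*, was examined in HGC27 cells, an established human gastric cancer line. The members were chosen by name, and each was found as 1 of the 39739 gene rows. RNA was sequenced from HGC27-FN1 3′-UTR cells, in which the 3′-UTR of *FN1*, the fibronectin gene, was stably overexpressed from a lentivirus under puromycin selection, with 3 libraries, and from HGC27-control cells, described in the labels only as control, also with 3. Both groups were grown in RPMI-1640 with fetal bovine serum. Expression is given as RPKM, the reads of a gene per kilobase of its exons and per 1000000 reads assigned to genes, which allows levels to be compared between genes. The labels number the libraries 1 to 3 in each group and do not say whether they came from separate cultures, so the p-values measure the spread between these libraries. Whether the overexpression was repeated in independent infections is not given in the sources used here.

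The tube that becomes the gut is patterned by transcription factors that bind DNA in combination, and their levels mark position along it. GATA4 and GATA6 are zinc-finger factors of the early endoderm and of the stomach and intestine. SOX2 marks the foregut and stomach, whereas the homeobox factor CDX2 marks the intestine and is found in intestinal metaplasia of the stomach. FOXA1 and FOXA2 are forkhead factors that open closed chromatin in endoderm, HNF4A is a nuclear receptor of differentiated hepatic, intestinal and gastric epithelium, and SOX9 is kept in progenitor cells of many epithelia and drives cartilage formation.

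The libraries held between 16357085 and 37037532 reads assigned to genes. *FN1*, measured over its whole transcript, was at 0.777, 0.745 and 0.819 RPKM in HGC27-FN1 3′-UTR cells and at 0.543, 0.474 and 0.532 RPKM in HGC27-control cells, a 1.51-fold difference (log2 fold change 0.52, SE 0.108, limma adjusted p = 0.0292). Of 23299 genes tested, limma at an adjusted p under 0.05 called 1310 higher and 1715 lower with *FN1* 3′-UTR overexpression, and after median-ratio scaling of the libraries the split was 1696 against 1330. The label of a gastric epithelial line was checked against its markers. In HGC27-control cells *EPCAM* was at 0.208 RPKM, *CDH1* at 0.126 RPKM and *KRT8*, the highest of the epithelial list, at 2.15 RPKM, while the collagen gene *COL3A1* stood at 82.1 RPKM. The summed level of 14 gastric epithelial markers was 4.21, 4.19 and 4.6 RPKM in HGC27-control cells and 20.6, 20.0 and 29.2 RPKM in HGC27-FN1 3′-UTR cells, and 6 of the 9 tested markers were called higher, or 4 where a marker had to reach the level for the test, 0.1 RPKM, in all 6 libraries. The sum was carried by *KRT8*, at 12.2 against 2.15 RPKM, and *KRT18*, at 4.87 against 0.179 RPKM. *EPCAM*, at 1.81 against 0.208 RPKM, and *CDH1*, at 0.703 against 0.126 RPKM, were also called higher (limma adjusted p = 0.00348 and 0.00316). In contrast, *CLDN7* (1.1 against 1.01 RPKM) and *CLDN4* (0.265 against 0.316 RPKM) were not called. *CLDN3*, *CLDN18*, *MUC5AC* and *TFF1* had means below 0.1 RPKM in both groups. The summed level of 9 fibroblast markers was 123 to 141 RPKM in HGC27-control cells and 179 to 182 RPKM in HGC27-FN1 3′-UTR cells. This fibroblast sum was carried by *COL3A1*, at 111 against 82.1 RPKM, and *COL1A1*, at 44.5 against 30.5 RPKM. The RNA came from whole cultures, in which more or fewer cells of a kind and more or less RNA per cell cannot be told apart.

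The study enriched miRNAs on the *FN1* 3′-UTR, and the mature sequences of 4 of them are shown because it asked whether other 3′-UTRs share these miRNAs. They are taken from RefSeq on GRCh38.p14, with the seed, bases 2 to 8, in capitals.
hsa-let-7i-5p: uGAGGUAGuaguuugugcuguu
hsa-miR-629-5p: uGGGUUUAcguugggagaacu
hsa-miR-423-5p: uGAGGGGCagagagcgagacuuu
hsa-miR-296-3p: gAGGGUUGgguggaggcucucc
The 7 bases that pair with each seed are CTACCTC for let-7i-5p, TAAACCC for miR-629-5p, GCCCCTC for miR-423-5p and CAACCCT for miR-296-3p, and they were searched on the transcript strand in the GENCODE release 29 3′-UTR of each member. No member held a match for let-7i-5p, miR-423-5p or miR-296-3p. The match for miR-629-5p was found once in *SOX9* and 3 times in *HNF4A*, and in no other member. The sites are printed 5′ to 3′ on the plus strand of GRCh38, with the match in capitals.
SOX9 at chr17:72124667-72124688: gaaactggacttttTAAACCCt
HNF4A at chr20:44429992-44430013: cttgaggccttactTAAACCCa
HNF4A at chr20:44430827-44430848: gaggacaagatgggTAAACCCt
HNF4A at chr20:44434560-44434581: taaattgtgcttaaTAAACCCa
Among 18448 genes with a 3′-UTR, 6.58% held the miR-629-5p match, 8.82% the let-7i-5p match, 13.7% the miR-423-5p match and 7.95% the miR-296-3p match. In the 8570 genes with a 3′-UTR of 500 to 2500 nt, the range that holds every member other than *HNF4A*, the shares were 5.19%, 7.86%, 14.8% and 7.20%. The *HNF4A* 3′-UTR is the longest of the 8, at 4931 nt against 2033 nt for *SOX9*. A match is a string of letters, and binding of these miRNAs to the members was not tested.

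Of the 8 members, *GATA4* was lower and *SOX9* was higher in HGC27-FN1 3′-UTR cells, and the other 5 members with enough RNA for the test did not pass it. Over all genes tested, 7.36% were called lower and 5.62% were called higher, so 1 of 7 in each direction is a count that few genes decide. The 6 libraries fell into groups that did not overlap for *GATA4*, *GATA6*, *SOX2* and *FOXA2*, each below HGC27-control cells, and for *SOX9* above them. Groups that did not overlap were found for 21.7% of all tested genes on the lower side and for 14.3% on the higher side. The median log2 fold change of the 7 tested members was -0.34, against -0.04 for all tested genes. *HNF4A* was below the level set for the test and is described by its reads.

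**Figure D1:**
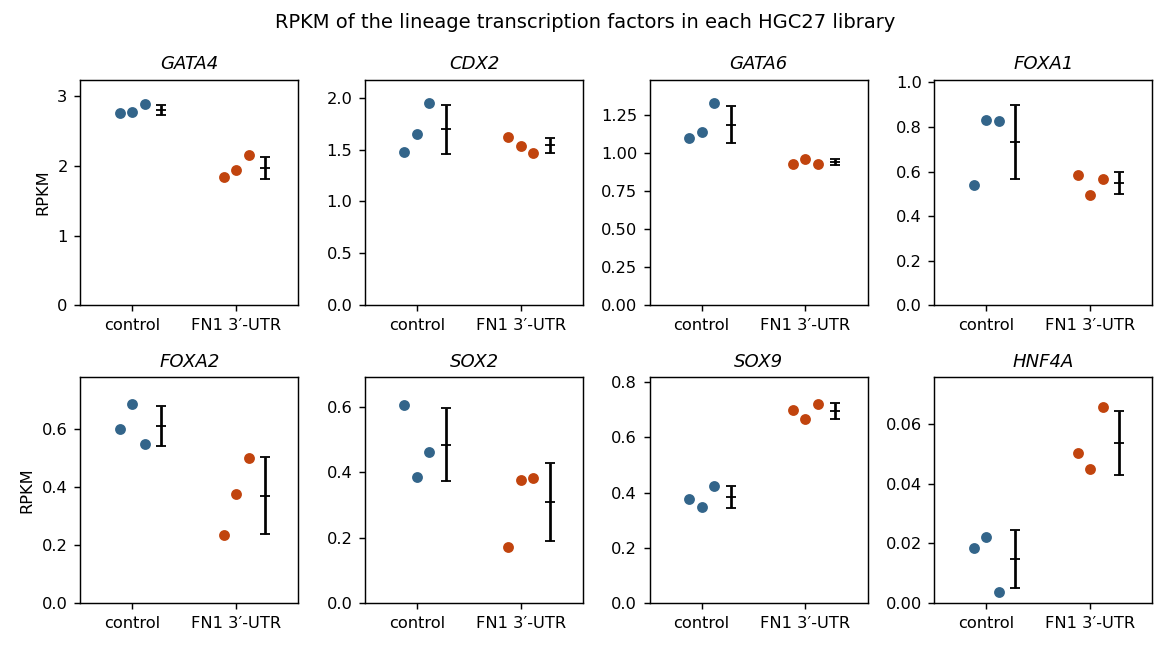
RPKM (vertical axes, from 0, scaled to each gene) of the 8 transcription factors in the 3 HGC27-control libraries (blue) and the 3 HGC27-FN1 3′-UTR libraries (red), with the mean and SD of each group in black. *GATA4* fell from 2.81 to 1.98 RPKM and *SOX9* rose from 0.382 to 0.696 RPKM with no overlap, whereas the points of *CDX2* and *FOXA1* overlap.

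*GATA4* lies on chromosome 8 at 11676959 to 11760002 on the plus strand and had the highest level of the 8. Its RPKM was 1.84, 1.94 and 2.15 in HGC27-FN1 3′-UTR cells and 2.76, 2.77 and 2.89 in HGC27-control cells. The groups did not overlap, and the highest HGC27-FN1 3′-UTR library was below the lowest HGC27-control library. The mean was 1.98 ± 0.157 RPKM (SD, n = 3) against 2.81 ± 0.0704 RPKM (SD, n = 3). The log2 fold change was -0.49 (95% interval -0.66 to -0.31, SE 0.0723, limma adjusted p = 0.011), a ratio of mean RPKM of 0.705. These values rested on 623 reads in the overexpressing group and 1128 in the control group, that is 8.9 against 12.5 reads per 1000000. The call was kept in each of 13 alternative analyses, with an adjusted p between 0.000139 and 0.0497. Among the genes called lower, 72.9% had a smaller change than *GATA4*. The exact permutation test of 3 libraries against 3 gave its smallest possible two-sided p, 0.1, for *GATA4*, as it did for every member whose groups did not overlap.

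*GATA6*, on chromosome 18 at 22169443 to 22202528, was at 0.93, 0.965 and 0.929 RPKM in HGC27-FN1 3′-UTR cells and at 1.1, 1.14 and 1.33 RPKM in HGC27-control cells. These groups did not overlap either, but the difference did not pass the test, with a log2 fold change of -0.31 (95% interval -0.54 to -0.07, limma adjusted p = 0.0915). It passed in 1 of 13 alternatives, limma voom on the recovered reads, with an adjusted p of 0.0439. *GATA6* shares 321 nt of exon with RP11-627G18.1 on the opposite strand, which had 27 to 69 reads in each library, and the strand setting of the counting is not given in the sources used here. The ratio of *GATA4* to *GATA6* RPKM was 1.98, 2.0 and 2.32 in HGC27-FN1 3′-UTR cells and 2.51, 2.42 and 2.16 in HGC27-control cells, so that the 2 groups overlapped (exact permutation test, two-sided p = 0.2).

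The relatives and partners of the GATA factors differed among themselves. ZFPM2 and ZFPM1, the FOG cofactors that bind GATA zinc fingers, were both called lower. *ZFPM2* was at 1.40, 1.42 and 1.42 RPKM in HGC27-FN1 3′-UTR cells and at 2.31, 2.48 and 2.06 RPKM in HGC27-control cells (log2 fold change -0.65, limma adjusted p = 0.00718), and it was called in each of 13 alternatives. *ZFPM1* was at 0.74, 0.73 and 0.813 RPKM against 1.17, 1.12 and 1.18 RPKM (log2 fold change -0.55, limma adjusted p = 0.0138). The groups of both cofactors stood apart, but the call of *ZFPM1* was lost without HGC27-FN1 3′-UTR replicate 2 (limma adjusted p = 0.05), HGC27-control replicate 2 (0.0553) or HGC27-control replicate 3 (0.0509), and with the replicate block (0.0586). *GATA2*, known from blood-forming cells, was at 6.26 against 6.23 RPKM, and *GATA3*, known from T cells, was at 0.588 RPKM with the overexpression and at 0.536 RPKM without it. The atypical GATA factor *TRPS1* had the highest level of the GATA proteins, at 19.1 against 20.4 RPKM (limma adjusted p = 0.215).

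*SOX9*, on chromosome 17 at 72121020 to 72126420 on the plus strand, was the only member called higher. Its RPKM was 0.699, 0.666 and 0.722 in HGC27-FN1 3′-UTR cells and 0.376, 0.346 and 0.425 in HGC27-control cells. No library of either group came near the other group. The mean was 0.696 ± 0.0283 RPKM (SD, n = 3) against 0.382 ± 0.0400 RPKM (SD, n = 3), a 1.82-fold difference. The log2 fold change was 0.72 (95% interval 0.43 to 1.02, SE 0.121, limma adjusted p = 0.0156). It rested on 192 reads in the overexpressing group and 137 in the more deeply sequenced control group. The log2 fold change was between 0.67 and 0.79 with any 1 library left out, but the call was lost without HGC27-FN1 3′-UTR replicate 1 (limma adjusted p = 0.0554), replicate 2 (0.0504) or replicate 3 (0.0529), or without HGC27-control replicate 2 (0.0619). Among genes called higher, 69.8% had a smaller change than *SOX9*. Its antisense neighbour *SOX9-AS1* had 0 reads in each library. The summed epithelial markers given above moved in the same direction, and their part in the *SOX9* difference was not tested.

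*SOX2*, a gene on chromosome 3 at 181711924 to 181714436, was at 0.17, 0.375 and 0.382 RPKM in HGC27-FN1 3′-UTR cells and at 0.606, 0.387 and 0.462 RPKM in HGC27-control cells. The groups were separated by 0.382 against 0.387 RPKM, a gap smaller than 1 read could show. These values rested on only 7, 23 and 28 reads with the overexpression and on 34, 30 and 43 reads without it. The log2 fold change was -0.55 (95% interval -1.22 to 0.12, limma adjusted p = 0.249), and it was -0.27 without HGC27-FN1 3′-UTR replicate 1, the library with 7 reads and the lowest depth. *SOX2* lies within the long noncoding *SOX2-OT* on the same strand, which had 0 to 3 reads in each library and shares no exon with it.

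The level of *SOX9* was set against those of *SOX2* and *GATA4* within each library. The ratio of *SOX9* to *SOX2* RPKM was 4.11, 1.78 and 1.89 in HGC27-FN1 3′-UTR cells and 0.62, 0.894 and 0.921 in HGC27-control cells. *SOX9* was thus above *SOX2* in 3 of 3 HGC27-FN1 3′-UTR libraries and below it in 3 of 3 HGC27-control libraries, a log2 difference of 1.59 (exact permutation test, two-sided p = 0.1, the smallest possible). The ratio of *SOX9* to *GATA4* RPKM was 0.379, 0.344 and 0.336 against 0.136, 0.125 and 0.147, a log2 difference of 1.38 (exact permutation test, two-sided p = 0.1). Both ratios are made from the values already given, and *SOX2* itself did not pass the test. In HGC27-control cells the RPKM ranges of *SOX9* and *SOX2* overlapped. The ratios there rested on 33, 42 and 62 *SOX9* reads and on 34, 30 and 43 *SOX2* reads. The ratio of 4.11 rested on 7 *SOX2* reads.

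**Figure D2:**
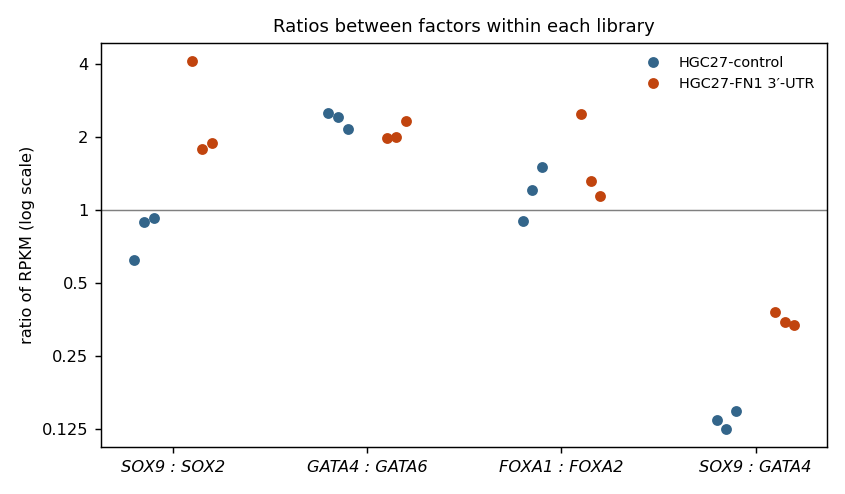
Ratio of RPKM between pairs of factors (vertical axis, log scale, line at 1) in each HGC27-control (blue) and HGC27-FN1 3′-UTR library (red). The *SOX9* to *SOX2* ratio lies below 1 in the control libraries, at 0.62 to 0.921, and above 1 in the others, at 1.78 to 4.11, whereas *GATA4* to *GATA6* and *FOXA1* to *FOXA2* overlap between groups.

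Other SOX genes were far more abundant than *SOX2* and *SOX9*. *SOX12*, a SOXC gene, was at 29.5 RPKM in HGC27-FN1 3′-UTR cells and at 34.9 RPKM in HGC27-control cells (log2 fold change -0.24, limma adjusted p = 0.00617). *SOX4*, a SOXC gene of progenitor and carcinoma cells, was at 9.18, 8.26 and 8.70 RPKM against 5.95, 5.69 and 6.44 RPKM (log2 fold change 0.53, limma adjusted p = 0.00571). *SOX4* rose and *SOX12* fell in each of 13 alternatives, so genes of 1 SOX group moved in opposite directions. *SOX8*, which belongs to the same SOXE group as *SOX9*, was called lower where *SOX9* was called higher. It was at 3.30, 3.67 and 4.05 RPKM in HGC27-FN1 3′-UTR cells and at 4.93, 4.96 and 5.30 RPKM in HGC27-control cells (log2 fold change -0.46, limma adjusted p = 0.018), and its call was lost without HGC27-FN1 3′-UTR replicate 2 (0.0588) or HGC27-control replicate 2 (0.0646) or 3 (0.0571). *SOX10*, the remaining SOXE gene, had 2 reads in the overexpressing group and 10 in the control group.

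The forkhead factors *FOXA1*, on chromosome 14 at 37589984 to 37596059 on the minus strand, and *FOXA2*, on chromosome 20 at 22581005 to 22585455 on the minus strand, did not pass the test. *FOXA1* was at 0.583, 0.494 and 0.568 RPKM in HGC27-FN1 3′-UTR cells and at 0.54, 0.831 and 0.827 RPKM in HGC27-control cells. HGC27-control replicate 1 lay among the HGC27-FN1 3′-UTR values, and the log2 fold change of -0.34 (95% interval -0.77 to 0.09, limma adjusted p = 0.262) became -0.52 (limma adjusted p = 0.0725) without that library. *FOXA2* was at 0.235, 0.378 and 0.50 RPKM in HGC27-FN1 3′-UTR cells and at 0.602, 0.686 and 0.55 RPKM in HGC27-control cells. Its groups did not overlap, and its log2 fold change of -0.63 (95% interval -1.19 to -0.07) had a limma adjusted p of 0.128. Without HGC27-FN1 3′-UTR replicate 1, which held 10 *FOXA2* reads, it was -0.41 (limma adjusted p = 0.213). *FOXA3*, the hepatic member of this group, had 13 reads in the overexpressing group and 4 in the control group and was not tested.

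**Figure D3:**
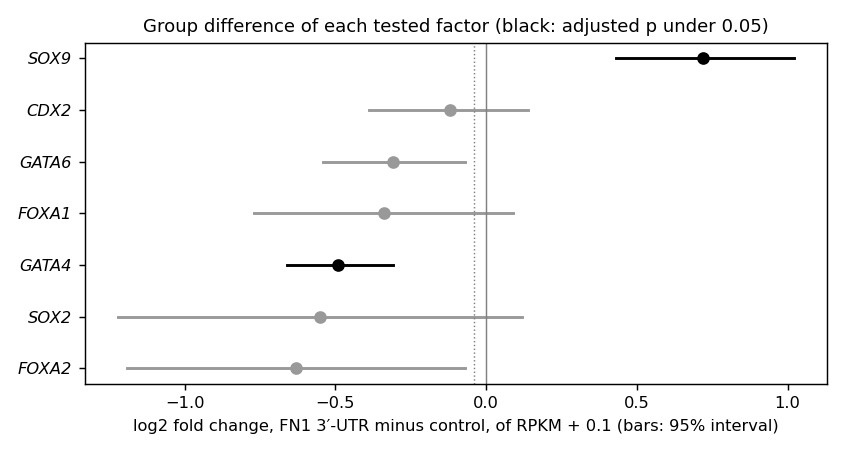
Log2 fold change of RPKM + 0.1 (horizontal axis, HGC27-FN1 3′-UTR minus HGC27-control) with its 95% interval for the 7 tested factors. *SOX9* at 0.72 and *GATA4* at -0.49 passed the test (black), the other 5 did not (grey), and the dotted line is the median of all tested genes, -0.04.

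*CDX2*, on chromosome 13 at 27962137 to 27971139 on the minus strand, had the second highest level and showed no difference that could be told from the spread. It was at 1.62, 1.53 and 1.47 RPKM in HGC27-FN1 3′-UTR cells and at 1.48, 1.65 and 1.95 RPKM in HGC27-control cells. The groups overlapped, and the log2 fold change was -0.12 (95% interval -0.39 to 0.14, limma adjusted p = 0.522, exact permutation test, two-sided p = 0.4). Its interval leaves room for a fall of 0.39 or a rise of 0.14 on the log2 scale. *CDX2* was thus above *SOX2* in each of the 6 libraries, with a ratio of 3.85 to 9.49 in HGC27-FN1 3′-UTR cells and 2.44 to 4.27 in HGC27-control cells. The other CDX genes were not analysed here.

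*HNF4A*, on chromosome 20 at 44355700 to 44434596 on the plus strand, was close to the limit of detection. It had 6, 8 and 14 reads in HGC27-FN1 3′-UTR cells, or 0.0502, 0.0448 and 0.0656 RPKM, and 3, 5 and 1 reads in the HGC27-control libraries, or 0.0184, 0.0222 and 0.00369 RPKM. Every HGC27-FN1 3′-UTR library was above every HGC27-control library, although the HGC27-control group as a whole was sequenced more deeply. Summed over each group, this was 0.4 reads per 1000000 (95% exact Poisson interval 0.266 to 0.578) against 0.0998 reads per 1000000 (0.0456 to 0.189), intervals that cover counting error only. The ratio of mean RPKM was 3.63. In a fit with no filter on low values, the log2 fold change on the RPKM + 0.1 scale was 0.42 (SE 0.131, limma adjusted p = 0.133), so *HNF4A* was not called. Its paralog *HNF4G* was more abundant, at 0.692 against 0.683 RPKM, and was not called (limma adjusted p = 0.926).

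The order of the levels was compared within each group. In HGC27-control cells it was *GATA4*, *CDX2*, *GATA6*, *FOXA1*, *FOXA2*, *SOX2*, *SOX9* and *HNF4A*. In HGC27-FN1 3′-UTR cells it was *GATA4*, *CDX2*, *GATA6*, *SOX9*, *FOXA1*, *FOXA2*, *SOX2* and *HNF4A*. *SOX9* had rank 4 in all 3 HGC27-FN1 3′-UTR libraries and rank 7 in all 3 HGC27-control libraries. The ranges of neighbours did not overlap for *GATA4*, *CDX2* and *GATA6* in either group or for *HNF4A* below the others, whereas *FOXA1*, *FOXA2* and *SOX2* overlapped with their neighbours in that run, and in HGC27-control cells *SOX2* overlapped with *SOX9*. None of the 8 was abundant. *GATA4* stood above 49.9% of tested genes in HGC27-FN1 3′-UTR cells and above 56.3% in HGC27-control cells, and *SOX9* above 31.4% and 21.9%.

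Transcription factors related to the members or known from gut development were examined as 2 lists. Of 16 tested relatives, 1 was called higher and 4 lower, with a median log2 fold change of -0.10. Of 19 tested factors of gut development, 3 were called higher and 2 lower, with a median of -0.18. Of the 35 factors tested in both lists, 28.6% were called in either direction. Over all tested genes 13.0% were called, 5.62% higher and 7.36% lower, and the median log2 fold change was -0.04. With the level for the test required in all 6 libraries, 1 factor of gut development was higher and 3 were lower. *FOXQ1* and *ELF3* were then left out, since they reached it only in the group where they were high. The 3 factors of gut development called higher in the main fit, *FOXQ1*, *ELF3* and *KLF5*, are factors of gastric or intestinal epithelium. *KLF5*, a factor of proliferating crypt cells, was at 12.8, 13.1 and 11.3 RPKM in HGC27-FN1 3′-UTR cells and at 7.46, 8.43 and 8.78 RPKM in HGC27-control cells (log2 fold change 0.59, limma adjusted p = 0.00856), and it was called in each of 13 alternatives. *FOXQ1* was at 0.238, 0.372 and 0.564 RPKM against 0.0582, 0 and 0.0351 RPKM (log2 fold change 1.88, limma adjusted p = 0.0171). *ELF3* was at 0.145, 0.245 and 0.376 RPKM against 0.0311, 0.018 and 0.0225 RPKM (log2 fold change 1.47, limma adjusted p = 0.0271). Both were nearly absent from HGC27-control cells, with 6 and 15 reads in all, so their log2 fold changes depended on the pseudocount. The call of *FOXQ1* was lost without HGC27-control replicate 2 (limma adjusted p = 0.0605), and that of *ELF3* without HGC27-control replicate 1 (0.0635), 2 (0.0883) or 3 (0.0717). The replicate block lost both calls (limma adjusted p = 0.0587 and 0.0768). With an HGC27-FN1 3′-UTR library left out, neither gene was fitted, since fewer than 3 libraries then reached the level for the test.

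The 2 that were lower are homeobox and cut-domain factors of the foregut. *MNX1*, a factor of early pancreas, was at 1.08, 1.24 and 1.09 RPKM in HGC27-FN1 3′-UTR cells and at 1.66, 1.78 and 1.96 RPKM in HGC27-control cells (log2 fold change -0.62, limma adjusted p = 0.0118, and 0.053 without HGC27-control replicate 2). *ONECUT1*, known as HNF6, was at 0.508, 0.521 and 0.676 RPKM against 0.884, 0.969 and 1.03 RPKM (log2 fold change -0.67, limma adjusted p = 0.0255). The *ONECUT1* groups did not overlap, but its call was kept in only 6 of 13 alternatives and, with an adjusted p of up to 0.0899, was lost when any library other than HGC27-FN1 3′-UTR replicate 3 was left out. *ONECUT3* was the more abundant paralog, at 5.51 against 6.60 RPKM (limma adjusted p = 0.127). *PDX1*, a factor of pancreas and antrum, was at 0.289 against 0.466 RPKM (limma adjusted p = 0.195).

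Genes of the tissues that these factors specify were then counted. Most were barely expressed, with 8 of 22 gastric, 5 of 25 intestinal and 2 of 20 hepatic genes reaching the level for the test. Together with the lists of SOX2 and SOX9 genes and of transcripts near the members, 39 genes were tested. Of these, 41.0% were called, against 13.0% of all tested genes. This share includes genes that reached the level only in the group where they were high. Of the 8 gastric genes, 3 were called higher and none lower, or 2 higher with that level required in all 6 libraries, which *CTSE* did not reach. *CTSE*, the gastric aspartic protease cathepsin E, was at 2.11, 2.36 and 2.92 RPKM in HGC27-FN1 3′-UTR cells and at 0.0503, 0.134 and 0.0404 RPKM in HGC27-control cells (log2 fold change 3.90, limma adjusted p = 0.000707). The HGC27-control libraries held only 3, 11 and 4 *CTSE* reads. Its log2 fold change thus depended on the pseudocount, and ran from 1.68 to 5.14 over the 12 alternatives in which it was fitted. *LYZ*, lysozyme, was at 3.78, 3.6 and 4.81 RPKM against 0.254, 0.147 and 0.153 RPKM (log2 fold change 3.88, limma adjusted p = 0.000409). *MUC1*, a membrane mucin, was at 2.70 against 1.72 RPKM (log2 fold change 0.60, limma adjusted p = 0.0368), a call kept in only 6 of 13 alternatives and lost, with an adjusted p of up to 0.113, without HGC27-FN1 3′-UTR replicate 2 or 3 or without any of the HGC27-control replicates. The other 5 gastric genes tested did not pass, and the median of the 8 was -0.11, so the summed level of the list, 9.30 to 12.3 against 3.75 to 4.32 RPKM, rested on few genes.

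Among the 5 intestinal genes tested, 3 were called higher, *MUC13*, *CDH17* and *LGR5*, of which *CDH17* and *LGR5* reached the level for the test only in the group where they were high. With that level required in all 6 libraries, 1 was called. *MUC13*, a membrane mucin, was at 0.402, 0.538 and 0.538 RPKM in HGC27-FN1 3′-UTR cells and at 0.166, 0.176 and 0.255 RPKM in HGC27-control cells (log2 fold change 0.99, limma adjusted p = 0.0232). *CDH17*, the intestinal cadherin known as a target of CDX2, had 48 reads against 5 (log2 fold change 1.28, limma adjusted p = 0.0294), and *LGR5*, a marker of intestinal and gastric stem cells, had 50 reads against 3 (log2 fold change 1.15, limma adjusted p = 0.0299). All 3 calls were lost without HGC27-control replicate 2, with adjusted p-values of 0.0825, 0.0945 and 0.091, and without HGC27-control replicate 1, with 0.0642, 0.0731 and 0.0713. The call of *MUC13* was also lost without HGC27-FN1 3′-UTR replicate 2 (0.0796) or 3 (0.0737), and that of *LGR5* without HGC27-control replicate 3 (0.0692). The replicate block lost the calls of *MUC13*, *CDH17* and *LGR5* (limma adjusted p = 0.0575, 0.0715 and 0.0948). With an HGC27-FN1 3′-UTR library left out, *CDH17* and *LGR5* were not fitted, since fewer than 3 libraries then reached the level for the test. *VIL1*, the villin gene, did not pass, at 0.831 against 0.705 RPKM (limma adjusted p = 0.54). *CDX2* itself, as given above, differed by less than its spread. Of the hepatic genes, *VTN*, encoding vitronectin, was higher at 0.448 against 0.087 RPKM (log2 fold change 1.53, limma adjusted p = 0.0148), although it reached the level for the test in all 3 libraries only of the group where it was high, and *APOA2* was not called, at 0.193 against 0.200 RPKM.

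**Figure D4:**
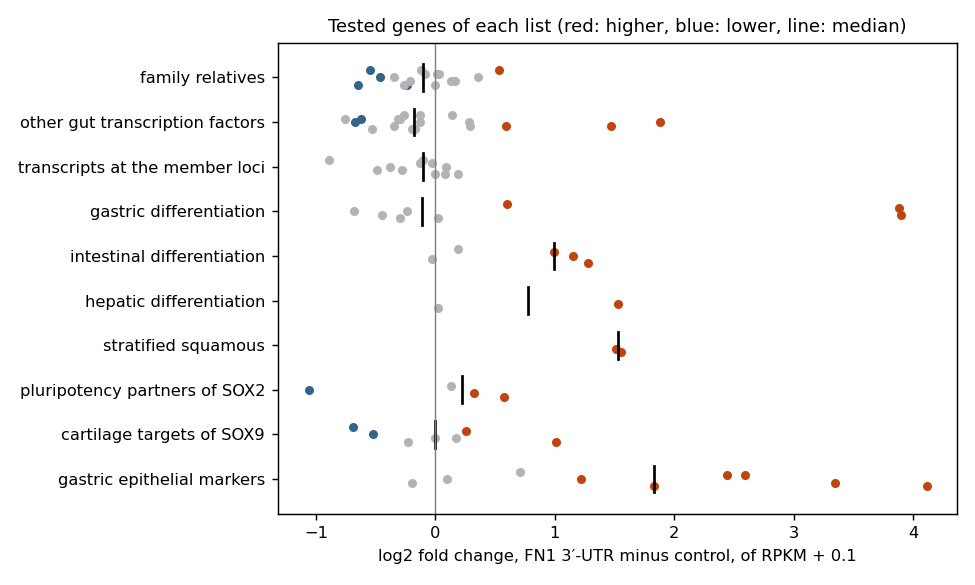
Log2 fold change of RPKM + 0.1 (horizontal axis, HGC27-FN1 3′-UTR minus HGC27-control) of each tested gene in 10 lists (rows), red where called higher, blue where called lower and grey where not called, with the list median as a black line. The transcription factors lie on both sides of 0, with medians of -0.10 and -0.18, and the gastric epithelial markers lie mostly to the right, with a median of 1.83.

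Genes known to work with or under SOX2 and SOX9 in other settings moved in both directions. Of 15 genes of stratified squamous epithelium, a tissue that depends on SOX2 only in part, 13 did not reach the level for the test and 6 of these had 0 reads. The 2 tested were called higher in each of 13 alternatives, *KRT4* at 1.31 against 0.382 RPKM (log2 fold change 1.55, limma adjusted p = 0.00168) and *SFN* at 3.62 against 1.19 RPKM (log2 fold change 1.51, limma adjusted p = 0.00459). Of the 4 tested genes listed as pluripotency partners of SOX2, 2 were called higher and 1 lower. *POU5F1* was not called, at 0.214 against 0.183 RPKM (limma adjusted p = 0.818). *POU3F2*, a POU factor that binds DNA beside SOX2 in neural cells, was lower at 0.363, 0.386 and 0.428 against 0.964, 0.984 and 0.83 RPKM (log2 fold change -1.06, limma adjusted p = 0.00512). The germline gene *DPPA2* was at 1.74 against 1.14 RPKM (log2 fold change 0.57, limma adjusted p = 0.0321), and the RNA-binding gene *LIN28B* was at 3.11 against 2.48 RPKM (log2 fold change 0.32, limma adjusted p = 0.0169). The calls of *DPPA2* and *LIN28B* were kept in 6 and 8 of 13 alternatives, with adjusted p-values of up to 0.0908 and 0.0626. Both were lost without HGC27-FN1 3′-UTR replicate 1 or 2 or HGC27-control replicate 2 or 3, and *DPPA2* also without HGC27-FN1 3′-UTR replicate 3. Of the 7 tested cartilage genes that SOX9 is known to activate, 2 were higher and 2 were lower. For comparison with these lists, 5.62% of all tested genes were called higher and 7.36% lower. *HAPLN1*, encoding a link protein, was at 10.1 against 4.99 RPKM (log2 fold change 1.01, limma adjusted p = 0.000573), and *COL9A3* at 29.7 against 24.8 RPKM (log2 fold change 0.26, limma adjusted p = 0.00905). *COL9A2*, whose product assembles with that of *COL9A3* in type IX collagen, was lower at 3.55 against 5.15 RPKM (log2 fold change -0.52, limma adjusted p = 0.00412), and *COMP* was lower at 1.86 against 3.05 RPKM (log2 fold change -0.69, limma adjusted p = 0.0108). These 4 genes were called in each of 13 alternatives, and the median of the 7 was 0.00. *COL2A1*, the defining collagen of cartilage, had 26 reads in the overexpressing group and 35 in the control group.

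None of the 11 tested transcripts near the member genes was called, and their median log2 fold change was -0.10. Near *GATA4*, *FDFT1* was at 16.3 against 15.3 RPKM (log2 fold change 0.09, limma adjusted p = 0.114) and *NEIL2* was at 3.26 against 3.97 RPKM (log2 fold change -0.28, limma adjusted p = 0.0571). *MIB1* beside *GATA6* was at 5.68 against 6.11 RPKM (limma adjusted p = 0.234), and *GATA6-AS1*, the divergent transcript at the *GATA6* promoter, had 14 reads against 17. *SERINC3*, near *HNF4A*, was at 6.51 against 7.14 RPKM (limma adjusted p = 0.25). *C8orf49*, also near *GATA4*, had a log2 fold change of -0.49 (limma adjusted p = 0.315). Without a call, 5 of the 11 were lower with no overlap of the groups, *NEIL2*, *C8orf49*, *SERINC3*, *THBD* and *PAX1*. Of these, *THBD* had a log2 fold change of -0.89 (limma adjusted p = 0.0609). On the higher side, 2 of the 11 stood apart, *FDFT1* and *MIPOL1* (0.819 against 0.707 RPKM). Over all tested genes, the groups stood apart for 21.7% on the lower side and for 14.3% on the higher side. With limma voom, 2 of the 11 were called lower and 1 higher. With median-ratio scaling, *FDFT1* was called higher (limma adjusted p = 0.0438).

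Genes with the profile most like that of *SOX9* or *FOXA2*, the tested members with the largest changes, were found by the root mean square difference of the centred log2 values over the 6 libraries. Nearest to *SOX9* were *LSAMP*, a neural adhesion gene (0.0331), *MYL9*, encoding a myosin light chain of contractile cells (0.0388), and *CCDC85A* (0.0390). *LSAMP* was at 0.834, 0.809 and 0.839 RPKM in HGC27-FN1 3′-UTR cells and at 0.485, 0.427 and 0.512 RPKM in HGC27-control cells. *MYL9* was at 31.8, 30.4 and 33.3 RPKM against 19.5, 18.9 and 20.6 RPKM, a ratio of mean RPKM of 1.62 against 1.82 for *SOX9*, whose log2 value is reduced more by the pseudocount. In all, 237 of 23298 genes lay within 0.15 of *SOX9* and 46 within 0.15 of *FOXA2*. Nearest to *FOXA2* were RP11-849F2.9 (0.0610), RP11-432J22.2 (0.0712) and the pseudogene *MTCO1P22* (0.0816), 3 rows with 34, 81 and 5 reads in the overexpressing group.

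Markers of other cell types were examined beside these results. The 6 mesothelial markers summed to 9.24 to 9.76 RPKM in HGC27-control cells and to 10.8 to 11.2 RPKM in HGC27-FN1 3′-UTR cells, and 2 were called higher, or 1 with the level for the test required in all 6 libraries, which *LRRN4* did not reach in HGC27-control cells. Of these, *LRRN4* was at 0.264 against 0.0372 RPKM (log2 fold change 1.40, limma adjusted p = 0.0106) and *UPK3B* at 0.98 against 0.515 RPKM (log2 fold change 0.84, limma adjusted p = 0.0387), whereas *MSLN*, at 7.38 against 6.60 RPKM, and *WT1*, at 1.14 against 1.19 RPKM, were not called. Of 9 fibroblast markers, 5 were called higher, among them *LUM* at 11.8 against 5.97 RPKM (log2 fold change 0.98, limma adjusted p = 0.00711) and *COL1A2* at 1.16 against 0.405 RPKM (log2 fold change 1.32, limma adjusted p = 0.0013). Over all tested genes, 5.62% were called higher. The other fibroblast markers were not called. Of these, *PDGFRA* was lower with no overlap, at 1.99 against 2.31 RPKM (limma adjusted p = 0.117). The groups overlapped for *PDGFRB* and *FAP*, and *DCN* was at 2.02 against 1.64 RPKM. The call of *UPK3B* was kept in 6 of 13 alternatives and lost, with an adjusted p of up to 0.113, without any of the HGC27-FN1 3′-UTR replicates or without HGC27-control replicate 2 or 3. Endothelial markers were near 0, at 0.0705 to 0.121 RPKM in sum in HGC27-control cells and 0.182 to 0.231 RPKM in HGC27-FN1 3′-UTR cells, with *PECAM1* at 0 reads, 1 of 6 tested and none called. Leukocyte markers summed to 3.48 to 4.14 RPKM in HGC27-control cells and 3.09 to 3.3 RPKM in HGC27-FN1 3′-UTR cells. Of 4 tested, 1 was called, *NKG7*, lower with the overexpression at 0.122 against 0.402 RPKM (limma adjusted p = 0.0159, and 0.0518 or 0.0638 without HGC27-control replicate 1 or 2). The *NKG7* values were near the floor of 3 reads, with 2, 2 and 4 reads against 10, 11 and 12. Its call was also lost with the replicate block (limma adjusted p = 0.0584). The erythroid list summed to 43.6 to 55.4 RPKM against 36.5 to 40.1 RPKM, and 1 of 2 tested was called, *HBA2*, lower at 24.4 against 33.7 RPKM (limma adjusted p = 0.0134, and 0.0535 without HGC27-control replicate 2), a gene with a near copy, *HBA1*, so that its value is uncertain where reads fit both. The part of any of these in the *GATA4* and *SOX9* differences was not tested.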

How the data were processed

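RNA-seq of 6 HGC27 libraries was used, grouped by the sample labels. Per the submitters' processing notes, Trimmomatic 0.36, STAR 2.5.3a, featureCounts, Subread 1.5.1 and the build GRCh38 were named, and the annotation release and strand setting are not given in the sources used here. The authors used a strand-specific kit, and the deposited unit is RPKM. Multiplying RPKM by gene length gave whole reads, within 0.1 read, for 100% of values, and so the depth of 16357085 to 37037532 reads. With 3 reads as the floor, levels under 0.081 to 0.183 reads per 1000000 could not be told from 0. The chi-square per gene between libraries of 1 group was 2.5 to 5.66, above sampling noise, so none was a copy of another.

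Genes that reached an RPKM of 0.1 in 3 libraries were tested as log2(RPKM + 0.1) with limma 3.58.1 in R 4.3.3, with group as the only term and a trend in the prior variance. The Benjamini-Hochberg adjustment ran over 23299 genes. The fold changes understate those of low genes because of the pseudocount. Single values were compared with the exact permutation test of scipy 1.17.1, which cannot go below 0.1 with 3 libraries against 3. The fit was tested on simulated data with larger log2 fold changes than those of the members, so that test does not cover changes of their size. Intervals on reads cover counting error only. Alternatives were a pseudocount of 1 or 0.01, no filter, a filter in all 6 libraries, a replicate block, median-ratio scaling, limma voom on recovered reads, and each library left out. Replicate numbers did not pair the libraries, with correlations of deviations of 0.0024 to 0.021.

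The members, gene lists and tests were chosen with earlier results of these data known. All members were named and, in each list, up to 4 called genes with the largest change and up to 2 tested genes with the highest level, plus the 3 genes nearest in profile to the 2 tested members with the largest change. Genes given by their reads or as neighbours, relatives and markers beside these, and *FN1*, were chosen after their values were seen. Seed matches used the 3′-UTR of 1 GENCODE release 29 transcript a gene. Python 3.11.15 was used with matplotlib 3.10.9, numpy 2.4.6 and pandas 2.3.3.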

Additional observations from a re-analysis of the deposited data

How the results depend on the processing

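In 13 alternative analyses, the sign of the log2 fold change was kept for each of the 7 tested members. *GATA4* was called in all 13 (log2 fold change -0.55 to -0.36), *SOX9* in 8 (adjusted p 0.000651 to 0.0619), *GATA6* in 1, and *SOX2*, *CDX2*, *FOXA1* and *FOXA2* in none. With the replicate block, *SOX9* was not called (limma adjusted p = 0.0587), the number of members called higher was 0 and that of all genes was 564 higher and 598 lower, against 1310 and 1715 without it. The block also left 2 transcription factors and 6 differentiation or locus genes called higher, against 4 and 13. These samples share only a number. With limma voom on recovered reads, 2043 genes were higher and 3065 lower, 2 members (*GATA4* and *GATA6*) were lower, and 12 transcription factors and 5 differentiation or locus genes were lower, against 6 and 3. With the filter in all 6 libraries, 2 transcription factors were higher. With each library left out in turn, 501 to 927 genes were higher and 470 to 1015 lower, 0 to 1 members were higher, 2 to 3 transcription factors were higher and 2 to 6 lower, and 7 to 9 differentiation or locus genes were higher. Of 38 called list genes that were named, 20 were called in every alternative in which they were fitted and 38 kept their sign. Of the counts in single lists that were above 0, those under the alternatives stayed within 1.5 times in 172 of 221 cases and moved in 49. *SOX2* and *FOXA2* had larger changes than *GATA4* and did not pass, at 58 and 72 reads in the overexpressing group. Their spread between libraries there (CV 38.9% and 35.8%) exceeded the counting error (27.2% and 23.7%).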
